A study of Mus musculus with 12 samples.

Results

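The VEGF receptors and coreceptors were followed through 6 genes out of 23420 in the count table, chosen by name: the receptor genes Kdr, Flt1 and Flt4, the coreceptor genes Nrp1 and Nrp2, and the ligand gene Vegfc. All BMAL1 regions within 50 kb of their annotated starts were added, which were 2 of 4740 regions, both at Nrp2. The genes were picked with their mRNA changes already known, the fall of Kdr among them. Their mRNA changes are therefore given as a description, with standard errors and intervals and without p-values. BMAL1 ChIP was not used to pick the genes. The regions were called by the authors on EtOH-treated cells, though, so their EtOH signal was selected to be high, and the ChIP difference between treatments is also given as a description without a p-value.

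All groups were embryonic fibroblasts of 129/sv background that lack the clock repressor genes Per1, Per2, Nr1d1 and Nr1d2 (per1-/-, per2-/-, nr1d1-/-, nr1d2-/-) and carry a PER2-ER transgene, so the controls have the same deletions and the same transgene. Cells received 1 µM 4-hydroxytamoxifen (4-OHT), a ligand of modified estrogen receptor domains, or its solvent EtOH at 0.1%, and all were collected after 4 h. Stranded mRNA-seq, ChIP-seq of the clock activator BMAL1 and sequencing of input chromatin each had 2 libraries with 4-OHT and 2 with EtOH, which makes 12 libraries in 6 groups. Cells without the transgene were not analysed here, so an effect of 4-OHT outside the transgene cannot be told apart from one through it. The promoter of the transgene and the number of clones are not given in the sources used here. The labels do not say whether the 2 libraries of a group were separate cultures. The p-values therefore rest on library-to-library spread alone, part of which may be technical.

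Counted reads per mRNA library numbered 69292382 and 89695667 with 4-OHT, and 71633387 and 60267540 with EtOH. ChIP libraries held between 13502201 and 20712373 reads, and inputs between 12481308 and 33454366. Whole-gene counts lay between 1141 and 5938 for Per1, Nr1d1 and Nr1d2 and between 32909 and 55079 for Per2, whose count can include the transgene. Such counts do not show whether the deleted part of a gene was read. Esr1, a native estrogen receptor gene, had 13576 and 17763 counts with 4-OHT and 13708 and 10950 with EtOH. These counts could include reads of the ER part of the transgene, which were not told apart. Of 11 fibroblast markers, 9 passed the filter on low counts and edgeR called 0 of them changed (3 at an unadjusted p under 0.05, 0 by DESeq2). Over all 13216 tested genes edgeR called 2.44%, and 1329 genes were at an unadjusted p under 0.05. Col1a1, a chain of type I collagen, averaged 3748 ± 305 TPM (a level per length, with the same total in every library) with 4-OHT and 3574 ± 437 TPM with EtOH, and the intermediate filament gene Vim averaged 3662 ± 11.9 TPM with 4-OHT and 3612 ± 11.4 TPM with EtOH. Values after ± are SDs with n = 2 per group here and in the lists below. Thy1 and Lum, also on the fibroblast list, had no read in any library.

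VEGF receptors are receptor tyrosine kinases best known from blood and lymphatic endothelium. Kdr encodes VEGFR2, the main signalling receptor for VEGF-A. Flt1 encodes VEGFR1, which binds VEGF-A tightly and signals weakly, and Flt4 encodes VEGFR3, the receptor for VEGF-C and VEGF-D on lymphatic endothelium. Neuropilins carry no kinase domain: they bind VEGF together with the receptors and, with plexins, bind class 3 semaphorins.

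Kdr was lower with 4-OHT. It had 67 and 101 reads with 4-OHT, against 169 and 162 reads with EtOH. In CPM (reads scaled to library size, with TMM) this was 0.961 and 1.12 with 4-OHT, a mean of 1.04 ± 0.110, and 2.37 and 2.71 with EtOH, a mean of 2.54 ± 0.237 (SD, n = 2 each). Both 4-OHT libraries lay below both EtOH libraries, as they did for 18.3% of all tested genes. Their exact 95% Poisson intervals, 0.745 to 1.22 and 0.909 to 1.36 CPM with 4-OHT and 2.03 to 2.76 and 2.31 to 3.16 CPM with EtOH, did not overlap between treatments and cover counting error only. The edgeR fit gave a log2 change of -1.27 (SE 0.17, 95% interval -1.62 to -0.93), a 2.42-fold lower level with 4-OHT. Kdr stood at rank 26 from the lowest log2 change among the 13216 tested genes. All 6 genes passed the filter on low counts, and Kdr was the 1 of 6 that edgeR called at an adjusted p below 0.05. The call rule took 2.44% of all tested genes in either direction, 1.63% as lower and 0.802% as higher with 4-OHT, and since the genes were picked on this contrast nothing is read from that count. In these bulk libraries, fewer cells of a type and less RNA per cell cannot be told apart.

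**Figure D1:**
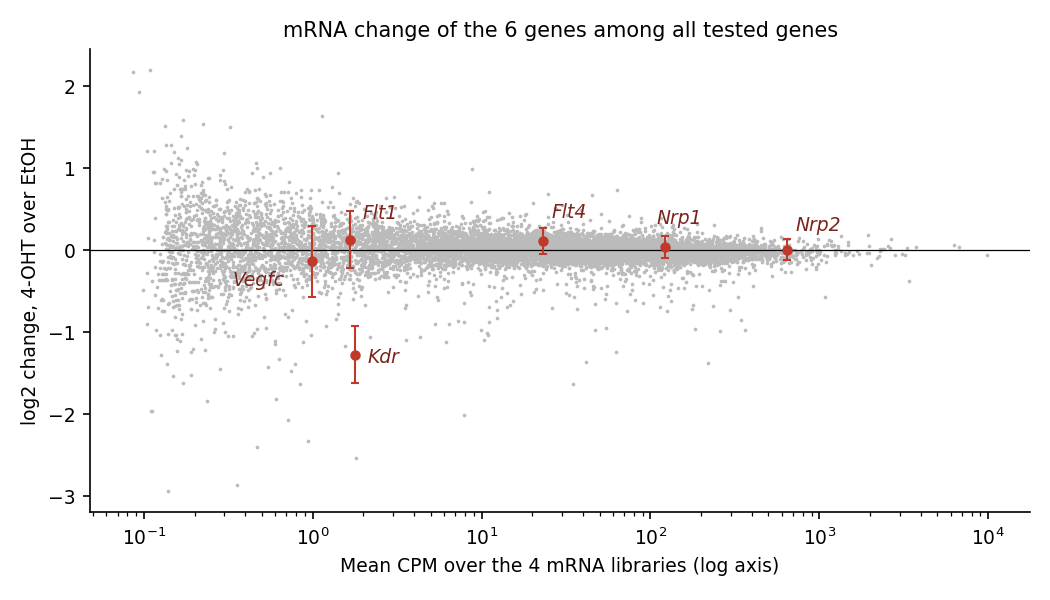
Log2 mRNA change, 4-OHT over EtOH, against mean CPM over the 4 mRNA libraries (log axis), with each tested gene as a grey point and the 6 VEGF receptor, neuropilin and Vegfc genes in red with 95% intervals. Kdr sits at -1.27 with its interval below 0, and the intervals of the other 5 genes include 0.

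Markers of endothelium, where Kdr is best known, averaged under 1 TPM over the 4 mRNA libraries for 11 of 14 genes. Of 14 endothelial markers, Cdh5, Tie1, Cldn5, Robo4 and Sox17 had no read in any library, and Pecam1 averaged 0.0665 ± 0.00919 TPM with 4-OHT and 0.0441 ± 0.00347 TPM with EtOH. The summed level of the list was 39.0 and 40.4 TPM with 4-OHT and 36.4 and 36.6 TPM with EtOH. A part of endothelial cells in the Kdr result was not tested. Most of the sum came from Erg, an ETS transcription factor, at 27.8 ± 0.536 TPM with 4-OHT and 25.9 ± 0.502 TPM with EtOH, and from Egfl7, a secreted vascular factor, at 6.35 ± 0.358 TPM with 4-OHT and 5.35 ± 0.610 TPM with EtOH. Plvap, also on the list, averaged 4.86 ± 0.674 TPM with 4-OHT and 4.83 ± 0.0274 TPM with EtOH, above Kdr in every library. The 5 endothelial markers that were tested gave 0 calls by edgeR and by DESeq2 and 0 at an unadjusted p under 0.05. Of 5 lymphatic endothelial markers, Prox1, Ccl21a, Reln and Mmrn1 had no read and none was tested.

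Other cell types were represented as follows. The 6 mural and smooth muscle markers summed to 29.3 and 31.6 TPM with 4-OHT and 30.5 and 26.8 TPM with EtOH. The 7 myeloid markers summed to 37.8 and 42.3 TPM with 4-OHT and 42.4 and 41.1 TPM with EtOH, mostly Cd14 and Cd68, while Emr1 had no read. The 6 epithelial markers summed to 10.1 and 11.3 TPM with 4-OHT and 9.50 and 8.71 TPM with EtOH, mostly the cadherin gene Cdh1. None of these 3 lists held a gene called by edgeR or DESeq2, and 1 epithelial marker was at an unadjusted p under 0.05. The epithelial sum moved the other way from Kdr, and its part in the Kdr result was not tested.

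The Kdr gene lies at chr5:75933270-75978428 on the minus strand (mm10) and has 30 annotated exons. Its promoter is shown because Kdr carries the mRNA change of the set without a BMAL1 region nearby. The 250 bases upstream of the RefSeq start come from RefSeq, assembly GRCm38.p6, at chr5:75978456-75978705 on the minus strand, given 5′ to 3′. No base is capitalised, since capitals would mark bases inside a BMAL1 region.
Kdr promoter: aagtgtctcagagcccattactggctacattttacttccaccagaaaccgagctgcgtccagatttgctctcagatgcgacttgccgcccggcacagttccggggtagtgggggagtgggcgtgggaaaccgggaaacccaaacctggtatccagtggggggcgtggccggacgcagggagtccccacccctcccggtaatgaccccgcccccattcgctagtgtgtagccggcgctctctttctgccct

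The nearest BMAL1 region to the Kdr start was 161914 bp away and lay 69 bp from the start of Srd5a3, a steroid reductase gene. Within 1 Mb of the Kdr start, 12 other genes were tested, with log2 changes between -0.14 and 0.39. edgeR called 0 of them (2 at an unadjusted p under 0.05, 0 by DESeq2), beside 2.44% of all tested genes. Among these 12 was Pdgfra, a related receptor tyrosine kinase whose start is 826137 bp away, with a log2 change of 0.20. Kit, which lies in the same receptor cluster, had no read in any library. Within 1 Mb of the other starts, edgeR called 1 of 14 tested genes near Flt1 and 1 of 5 near Vegfc. It called 0 of 31 near Flt4, 0 of 2 near Nrp1 and 0 of 5 near Nrp2.

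The genes whose pattern over the 4 mRNA libraries was most like that of Kdr were found by the root mean square difference of mean-centred log2 CPM. Bmp8a, a bone morphogenetic protein gene, was nearest at 0.0718, followed by 2310081J21Rik at 0.112 and E330013P04Rik at 0.116. Bmp8a had 9 and 15 reads with 4-OHT, against 26 and 28 reads with EtOH, so its pattern rests on few reads. Log2 changes were -1.45 for Bmp8a, -1.39 for 2310081J21Rik and -1.10 for E330013P04Rik, and edgeR called all 3 lower, which their likeness to Kdr makes a description and not a test.

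Flt1, the receptor closest to Kdr in level, was not called. It had 135 and 141 reads with 4-OHT and 115 and 93 reads with EtOH, or 1.94 and 1.56 CPM with 4-OHT and 1.62 and 1.56 CPM with EtOH. The groups overlapped. The log2 change was 0.13 (SE 0.17, 95% interval -0.22 to 0.47), and without the first 4-OHT library it was -0.03. The gene lies at chr5:147562196-147725988 on the minus strand.

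Flt4 was the most abundant of the 3 receptor kinases. It had 23.8 and 24.6 CPM with 4-OHT, a mean of 24.2 ± 0.573, and 21.8 and 23.0 CPM with EtOH, a mean of 22.4 ± 0.870 (SD, n = 2 each). Both 4-OHT libraries lay above both EtOH libraries, as they did for 18.7% of all tested genes. The log2 change was 0.11 (SE 0.08, 95% interval -0.05 to 0.27) and was not called. Flt4 lies at chr11:49609679-49652739 on the plus strand.

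Levels per length put the receptors at different places with and without 4-OHT. Kdr had 0.487 and 0.559 TPM with 4-OHT, against 1.19 and 1.36 TPM with EtOH. Flt1 had 0.852 and 0.677 TPM with 4-OHT, against 0.704 and 0.679 TPM with EtOH. Kdr thus lay below Flt1 in both 4-OHT libraries, with Kdr to Flt1 ratios of 0.572 and 0.825. It lay above Flt1 in both EtOH libraries, with ratios of 1.69 and 2.01. In the second 4-OHT library the order rested on 101 Kdr and 141 Flt1 reads. Their exact Poisson intervals, 82.3 to 123 and 119 to 166 reads, overlapped, so the order there can be counting error. The genes were picked with the fall of Kdr known, so the change of order and the shares below restate that fall as a description. Flt4 had 11.2 and 11.5 TPM with 4-OHT, against 10.2 and 10.8 TPM with EtOH. Kdr made up 3.87% and 4.39% of the summed TPM of the 3 receptors with 4-OHT, against 9.85% and 10.6% with EtOH, and Flt4 made up 89.4% and 90.3% with 4-OHT, against 84.3% and 84.1% with EtOH. The sum itself was 12.6 and 12.7 TPM with 4-OHT and 12.1 and 12.8 TPM with EtOH, and these groups overlapped.

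**Figure D2:**
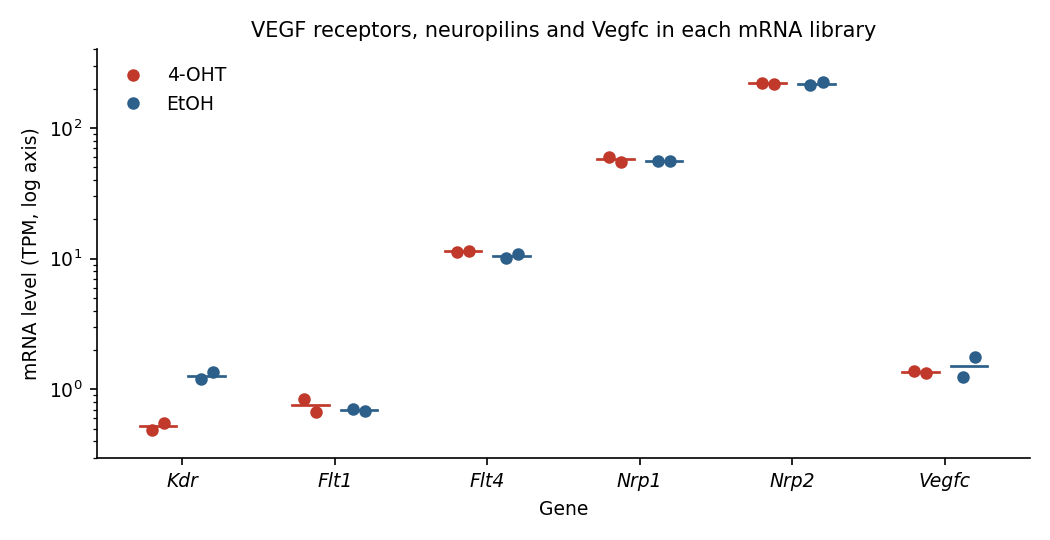
mRNA level in TPM (log axis) of the 6 genes, with 1 point per library, 4-OHT in red left of EtOH in blue, and lines at the group means. The 4-OHT points of Kdr, 0.487 and 0.559, lie below its EtOH points, 1.19 and 1.36, while Nrp2 is the highest of the 6 in every library.

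The neuropilins were far more abundant than the receptor kinases. Nrp2, which pairs with VEGFR3 for VEGF-C and binds class 3 semaphorins, had 221 and 217 TPM with 4-OHT, against 212 and 223 TPM with EtOH, a level above 93.4% of tested genes. Nrp1, which pairs with VEGFR2 for VEGF-A, had 60.2 and 54.9 TPM with 4-OHT, against 55.6 and 56.0 TPM with EtOH. Both groups overlapped for both genes. In CPM, Nrp2 averaged 648 ± 2.96 with 4-OHT and 644 ± 21.9 with EtOH, and Nrp1 averaged 124 ± 7.05 with 4-OHT and 121 ± 0.310 with EtOH (SD, n = 2 each). The log2 change was 0.01 for Nrp2 (SE 0.06, 95% interval -0.12 to 0.13) and 0.04 for Nrp1 (SE 0.07, 95% interval -0.09 to 0.17). Each turned negative without 1 library, to -0.03 for Nrp2 without the first EtOH library and to -0.02 for Nrp1 without the first 4-OHT library. Nrp2 was the 1 of the 6 genes listed in the authors' deposited table of 4-OHT against EtOH, at a log2 fold change of 0.01.

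The ratio of neuropilins to receptor kinases overlapped between treatments. Summed TPM of Nrp1 and Nrp2 was 22.4 and 21.4 times that of the 3 receptors with 4-OHT, against 22.1 and 21.7 times with EtOH. Nrp2 exceeded Nrp1 by 3.67 and 3.95 times with 4-OHT and by 3.81 and 3.98 times with EtOH. The ratio of Nrp2 to Nrp1 overlapped as well. Nrp1 lies at chr8:128359073-128505475 and Nrp2 at chr1:62703317-62818692, both on the plus strand.

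Vegfc, which encodes a ligand of VEGFR3, was scarce. It had 66 and 84 reads with 4-OHT and 61 and 73 reads with EtOH, or 1.39 and 1.35 TPM with 4-OHT and 1.25 and 1.78 TPM with EtOH. The second EtOH library was the highest and the first EtOH library the lowest, so the groups overlapped. The log2 change was -0.13 (SE 0.22, 95% interval -0.57 to 0.30), and without the second EtOH library it was 0.13. Vegfc lies at chr8:54077532-54186454 on the plus strand.

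Over all 4 libraries the order of mean TPM was Nrp2, Nrp1, Flt4, Vegfc, Kdr and Flt1. Nrp2 was 3.85 times Nrp1, Nrp1 was 5.19 times Flt4, and Flt4 was 7.59 times Vegfc, without overlap of the libraries in any of these steps. The libraries of Vegfc and Kdr overlapped, as did those of Kdr and Flt1.

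The Nrp2 promoter is shown because it is the one among the 6 that a BMAL1 region reaches. These are the 250 bases upstream of the start, from RefSeq, assembly GRCm38.p6 (the assembly that mm10 names), chr1:62703067-62703316 on the plus strand, 5′ to 3′. Capitals mark the 23 bases that lie inside the BMAL1 region at the gene start.
Nrp2 promoter: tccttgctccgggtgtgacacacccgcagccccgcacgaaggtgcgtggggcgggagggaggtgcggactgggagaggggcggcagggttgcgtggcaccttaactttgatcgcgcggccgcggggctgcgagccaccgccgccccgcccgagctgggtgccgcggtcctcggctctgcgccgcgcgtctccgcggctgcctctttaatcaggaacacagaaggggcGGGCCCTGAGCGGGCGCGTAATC

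That region, chr1:62703294-62703481 (mm10), is 188 bp long and covers the Nrp2 start. The other Nrp2 region, chr1:62706754-62707092, is 339 bp long and lies 3437 bp downstream of the start in an intron. Among all tested genes with 1 annotated locus, 45.5% had a region within 50 kb of the start. BMAL1 binds DNA with CLOCK at E-boxes. Neither CACGTG nor CACGTT, searched on both strands from 250 bases before to 50 bases after the start, was found in any of the 6 promoters. CACGTG occurs in 7.15%, CACGTT in 4.69% and either in 11.4% of the 32817 RefSeq promoter windows of that length. The Nrp2 window ends inside the gene start region and does not reach the intron region. The full sequences of these 2 regions were not read, so E-boxes in the rest of them were not searched for.

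BMAL1 ChIP signal, scaled by library totals, was lower with 4-OHT at both Nrp2 regions, a difference that scaling by TMM over the regions set to about 0. The region at the gene start held 3 and 12 reads with 4-OHT, against 18 and 25 reads with EtOH. Per 10000000 library reads (RP10M) this was 2.18 and 5.79 with 4-OHT, against 13.3 and 14.2 with EtOH, while inputs had 0.801 and 0.598 with 4-OHT and 0.728 and 0.708 with EtOH. Both 4-OHT ChIP libraries lay below both EtOH libraries, as they did at 98.0% of all regions, and the second 4-OHT library was 2.65 times the first. The log2 change was -1.66 (SE 0.46, 95% interval -2.56 to -0.76), a 3.16-fold lower signal. It was -2.61 without the second 4-OHT library and -1.24 without the first, and -1.55 when the change of the input was subtracted. It was 0.02 when the libraries were scaled by TMM over the regions themselves, which centres the change shared by all regions.

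The intron region held 21 and 23 reads with 4-OHT, against 82 and 51 reads with EtOH. In RP10M this was 15.3 and 11.1 with 4-OHT, against 60.7 and 28.9 with EtOH, while inputs had 4.81 and 3.29 with 4-OHT and 2.18 and 3.18 with EtOH. At this region the 4-OHT ChIP libraries lay below the EtOH ChIP libraries, as they did at 98.0% of all regions. The first EtOH ChIP library was 2.10 times the second, where the median of that ratio over all regions was 1.10. Among 1199 regions of similar EtOH read count, 99.8% had a lower ratio. The log2 change was -1.76 (SE 0.30, 95% interval -2.36 to -1.16), a 3.38-fold lower signal. It was -1.16 without the first EtOH library, -2.23 without the second, -2.14 with the change of the input subtracted, and -0.06 with TMM over the regions.

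Both changes lay near the middle of those of all regions. Of all 4740 regions, edgeR called 93.8% lower, both Nrp2 regions among them, and none higher (0 higher at an unadjusted p under 0.05 and 0 by DESeq2 with library totals), and the median log2 change was -1.66. The changes at Nrp2 stood at the 50.4 percentile of all regions for the gene start and at the 43.3 percentile for the intron. Since the regions were selected on EtOH signal, nothing is read from these counts. EtOH signal stood at the 21.4 percentile for the gene start and at the 74.5 percentile for the intron region, and the authors' peak caller gave fold enrichments of 6.45 for the gene start and 22.2 for the intron.

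**Figure D3:**
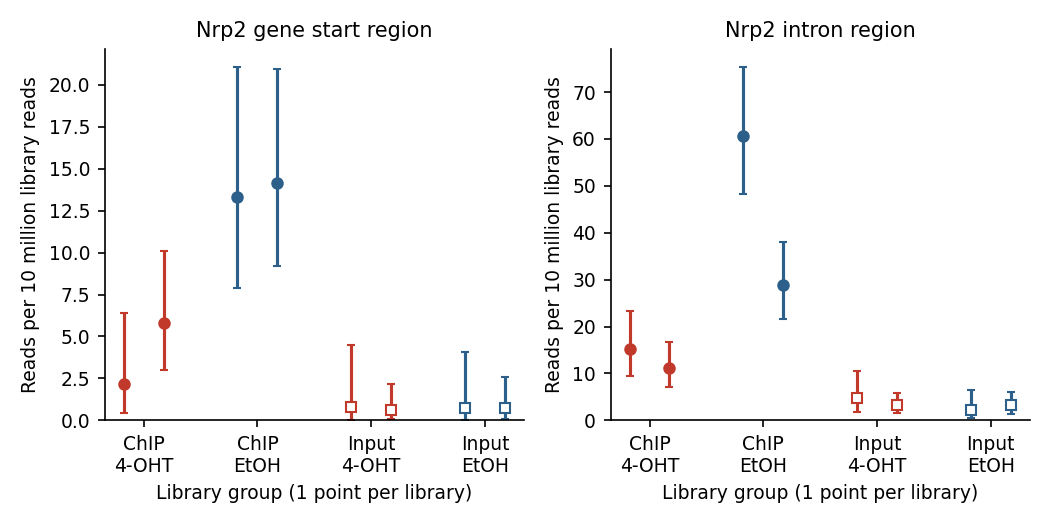
RP10M (reads per 10000000 library reads) at the Nrp2 gene start region (left) and intron region (right), with 1 point per library, filled for BMAL1 ChIP and open for input, and bars for exact 95% Poisson intervals. At both regions, with this scaling by library totals, the 4-OHT ChIP points lie below the EtOH ChIP points, and the EtOH points of the intron region, 60.7 and 28.9, lie apart.

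Scaled by library totals, ChIP signal with 4-OHT was above input at both Nrp2 regions. At the gene start the 4-OHT ChIP libraries together had 15 reads against 3 reads in the 4-OHT inputs, a log2 difference of 2.61 (95% interval 1.02 to 4.19, edgeR adjusted p 0.0029). At the intron region they had 44 reads against 17 reads, a log2 difference of 1.77 (95% interval 0.87 to 2.66, edgeR adjusted p 4.53e-04). Of all regions, 80.6% were called above input with 4-OHT. Without the second 4-OHT ChIP library the gene start log2 difference was 1.64 and was no longer called. With TMM over the regions neither was called, the intron difference turning to -0.12. That scaling centres a difference from input shared by the regions, so it cannot show whether such a difference is present. In EtOH, where the regions had been chosen for ChIP signal, the counts were 43 against 3 reads at the gene start and 133 against 12 at the intron, given as a description beside 99.5% of all regions called above input. Input itself changed by a log2 of -0.12 at the gene start and 0.37 at the intron and was called at 0 of 4739 regions, with 218 at an unadjusted p under 0.05.

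Nrp2 had lower BMAL1 signal with 4-OHT under scaling by library totals and an mRNA log2 change with an interval of -0.12 to 0.13, and Kdr had lower mRNA and no region within 100 kb. Flt1, Flt4, Nrp1 and Vegfc had no region within 100 kb either, while 59.7% of all tested genes with 1 annotated locus had such a region. The nearest was 294378 bp from the Flt1 start, 364116 bp from that of Flt4, 295344 bp from that of Nrp1 and 3574462 bp from that of Vegfc.

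Genes that work with these receptors were counted in 8 further lists of 82 genes, of which 73 were tested. edgeR called 1 higher and 2 lower with 4-OHT, 4.11% of those tested beside 2.44% of all tested genes, and DESeq2 called 2. The lists were chosen with earlier results of these data known, so these calls, adjusted over all tested genes, are not independent evidence about a list. Over all tested genes the median log2 change was 0.00. The edgeR fit put 20 of the 73 list genes and 1329 of all 13216 tested genes at an unadjusted p under 0.05.

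Of the class 3 semaphorins, secreted ligands of neuropilins and plexins, edgeR called 2 of 7 lower and 0 higher (4 at an unadjusted p under 0.05, 1 by DESeq2). It called 1.63% of all tested genes lower and 0.802% higher. Log2 changes were negative for 5 genes and positive for 2, with a median of -0.14. Sema3g had 2.63 and 2.87 CPM with 4-OHT, against 4.55 and 4.18 CPM with EtOH, a log2 change of -0.66 (SE 0.13, edgeR adjusted p 6.43e-04). Sema3d had 6.83 and 6.34 CPM with 4-OHT, against 8.44 and 8.95 CPM with EtOH, a log2 change of -0.40 (SE 0.10, edgeR adjusted p 0.0171). For each of these genes both 4-OHT libraries lay below both EtOH libraries, as they did for 18.3% of all tested genes. The Sema3g call held in all 9 alternative fits. That of Sema3d held in 4 and was lost with DESeq2, with the replicate block and without either EtOH library or the second 4-OHT library, while its log2 change lay between -0.45 and -0.35 in all 9. The most abundant members were Sema3e, at 84.1 ± 6.83 TPM with 4-OHT and 92.6 ± 5.12 TPM with EtOH, and Sema3f, at 62.2 ± 5.27 TPM with 4-OHT and 60.6 ± 2.26 TPM with EtOH.

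Plexins, the signalling partners of neuropilins for semaphorins, gave 0 calls among 7 tested of 9 (3 at an unadjusted p under 0.05, 0 by DESeq2), with a median log2 change of 0.03. Plxnb2 averaged 273 ± 9.88 TPM with 4-OHT and 264 ± 10.5 TPM with EtOH, and Plxna1 averaged 76.6 ± 3.10 TPM with 4-OHT and 76.6 ± 2.2 TPM with EtOH.

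The other VEGF ligands gave 0 calls among 4 (2 at an unadjusted p under 0.05, 0 by DESeq2), with a median log2 change of 0.15. Vegfb averaged 106 ± 6.96 TPM with 4-OHT and 100 ± 1.25 TPM with EtOH, and Vegfa averaged 95.2 ± 3.43 TPM with 4-OHT and 95.2 ± 4.22 TPM with EtOH. Vegfd, the other ligand of VEGFR3 and listed as Figf, averaged 35.03 ± 0.207 TPM with 4-OHT and 30.1 ± 0.837 TPM with EtOH. Vegfc was 0.568% and 0.520% of the summed TPM of Vegfa, Vegfb, Vegfc, Vegfd and Pgf with 4-OHT, against 0.519% and 0.750% with EtOH. The 4 tested of 5 genes for processing of VEGF-C and VEGF-D gave 0 calls (1 at an unadjusted p under 0.05, 0 by DESeq2) and a median log2 change of 0.03. Among them the proprotein convertase genes Furin, at 67.4 ± 2.95 TPM with 4-OHT and 64.0 ± 3.86 TPM with EtOH, and Pcsk7, at 32.3 ± 1.29 TPM with 4-OHT and 32.4 ± 2.16 TPM with EtOH, were the most abundant.

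Related receptor tyrosine kinases gave 0 calls among 3 tested of 5 (1 at an unadjusted p under 0.05, 0 by DESeq2), with a median log2 change of 0.08. Their most abundant members were the PDGF receptor genes Pdgfrb, at 130 ± 2.92 TPM with 4-OHT and 123 ± 1.37 TPM with EtOH, and Pdgfra, at 5.27 ± 0.237 TPM with 4-OHT and 4.56 ± 0.0520 TPM with EtOH.

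Downstream genes of VEGF receptor signalling gave 0 calls among 22 tested of 25 (3 at an unadjusted p under 0.05, 0 by DESeq2) and a median log2 change of 0.02, with the kinase gene Akt1 at 366 ± 17.1 TPM with 4-OHT and 369 ± 5.23 TPM with EtOH and the scaffold gene Iqgap1 at 255 ± 14.6 TPM with 4-OHT and 269 ± 6.90 TPM with EtOH. The 14 genes of receptor trafficking and phosphatases gave 0 calls (3 at an unadjusted p under 0.05, 0 by DESeq2) and a median log2 change of 0.01. Of these, the ubiquitin ligase gene Nedd4 averaged 698 ± 34.3 TPM with 4-OHT and 724 ± 17.5 TPM with EtOH, and the endocytic adaptor gene Dab2 averaged 153 ± 8.37 TPM with 4-OHT and 151 ± 13.9 TPM with EtOH.

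In the Notch pathway, which works with VEGF receptors in vessel sprouting, edgeR called 1 of 12 tested of 13 genes higher and 0 lower (3 at an unadjusted p under 0.05, 1 by DESeq2). It called 0.802% of all tested genes higher and 1.63% lower. Log2 changes were positive for 9 genes and negative for 3, with a median of 0.11. Hes1, a transcriptional repressor induced by Notch, had 11.9 and 12.6 CPM with 4-OHT, against 8.99 and 9.48 CPM with EtOH, a log2 change of 0.41 (SE 0.09, edgeR adjusted p 0.0065). Its 4-OHT libraries both lay above its EtOH libraries, as they did for 18.7% of all tested genes. The call was lost without the first EtOH library or the second 4-OHT library, while the log2 change lay between 0.36 and 0.45 in all 9 alternative fits. Notch2 averaged 123 ± 3.97 TPM with 4-OHT and 124 ± 6.29 TPM with EtOH, and Rbpj, the DNA-binding partner of Notch, averaged 90.1 ± 3.06 TPM with 4-OHT and 81.2 ± 0.936 TPM with EtOH.

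**Figure D4:**
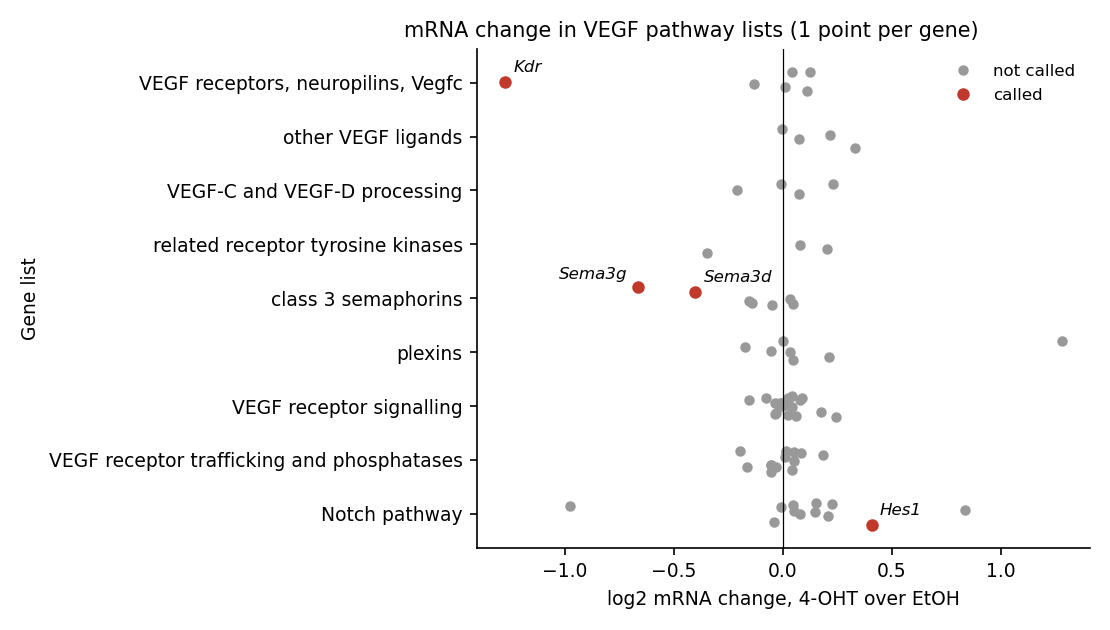
Log2 mRNA change, 4-OHT over EtOH, of each tested gene in the VEGF pathway lists, with 1 point per gene in rows by list and genes called at an edgeR adjusted p below 0.05 in red. Kdr at -1.27, Sema3g at -0.66, Sema3d at -0.40 and Hes1 at 0.41 are the called genes. Kdr was picked with its change on this contrast known, so its red point is a description and not a test.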

How the data were processed

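Per the file headers, the gene counts are the authors' output of featureCounts 1.5.0-p1, run reverse-stranded over exons of mm10 genes. Region files deposited for the 8 ChIP and input libraries hold read counts, with the peak caller's score, fold enrichment (a ratio) and −log10 p and q values. The region names place the calls on EtOH cells, and neither the aligner nor any pooling of replicates is given in the sources used here. The deposited signal table is named RPKM, but its values equal 5 plus reads per 10000000 library reads, from which the library totals were recovered. The design had assumed RPKM, and the recovered RP10M was used in its place. The authors' deposited comparison table holds a log2 fold change and a p-value per gene, and of its values the Nrp2 log2 fold change was used. Bedtools 2.25.0 and DESeq2 are named per the submitters' processing notes.

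The test of mRNA was edgeR 4.0.16 under R 4.3.3 (TMM, default filter, robust quasi-likelihood, Benjamini-Hochberg over 13216 genes, threshold 0.05). Region counts were fitted in the same way with library totals and no further scaling. The planned p-values of the ChIP change at Nrp2 are not printed, since the regions were selected on EtOH signal. Both were tested on simulated data. TPM came from counts and exon lengths. Alternatives were DESeq2 1.42.0, other scalings and filters, the replicate block, and leaving out each library. Members and lists were chosen with earlier results of these data known. Genes named were the 6 members, in each list the called genes and the 2 with the highest mean TPM, and the 3 genes nearest to Kdr in pattern. Vegfd, Pdgfra near Kdr, Kit, Srd5a3, Esr1, Plvap, the deleted genes and markers without reads were named outside this rule, after their values were seen.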

Additional observations from a re-analysis of the deposited data

How the results depend on the processing

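Kdr was lower in all 9 alternative mRNA fits, with log2 changes between -1.40 and -1.18, and the other 5 genes were called in none. These fits reuse the libraries on which Kdr was picked, so they show how its change depends on processing and are not further evidence for it. Leaving out 1 library reversed 4 genes that were not called: log2 changes lay between -0.0256 (without the first EtOH library) and 0.0445 for Nrp2, between -0.381 and 0.129 (without the second EtOH library) for Vegfc, and, lowest without the first 4-OHT library, between -0.0267 and 0.288 for Flt1 and between -0.0186 and 0.0986 for Nrp1. Over all genes, 106 were called higher and 216 lower; DESeq2 called 62 higher and 184 lower, and leaving out 1 library gave 40 to 196 higher and 140 to 247 lower. Same-numbered libraries did not deviate together (correlations of -0.17 for mRNA, 0.02 for ChIP and 0.01 for input), so the numbers were not taken to pair them. With the replicate block 60 were called higher and 152 lower. With the numbers crossed, an alternative chosen after seeing the data, 518 were called higher and 611 lower. The cause was not tested.

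The calls at the Nrp2 regions depend on scaling by library totals. With TMM over the regions, 0 of the 2 were called lower (log2 0.0166 at the gene start), and over all regions 228 were lower and 66 higher. DESeq2 with its own size factors called 133 lower and 13 higher and gave no adjusted p at Nrp2; both scalings centre the shared change by construction. Subtracting the input change left 2395 regions lower and 1 of the 2 at Nrp2, where the gene start stood at -1.55 and was no longer called. Against input, TMM gave 232 higher and 29 lower with 4-OHT and 375 higher and 38 lower with EtOH, 0 at Nrp2 in either, with the 4-OHT intron difference at -0.12, and called 1 region lower between inputs. Without the second 4-OHT ChIP library, 1 Nrp2 region stayed above 4-OHT input; leaving out 1 library gave 0 to 1 regions below input and 1 to 2 Nrp2 regions above it. The 3 reads of the first 4-OHT library at the gene start, and the 67 to 169 reads per library for Kdr, limit these values.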
